A study of Schizosaccharomyces pombe with 6 samples.

Results

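Gaps between convergent genes are the stretches of DNA between a pair of neighbouring protein-coding genes that point towards each other, so that transcription ends on both sides of the gap and starts on neither. They were followed here in fission yeast (Schizosaccharomyces pombe) on tiling arrays that measured the binding of Ssb1, the large subunit of replication protein A (RPA), by chromatin immunoprecipitation (IP). The gaps were taken from the ASM294v3 annotation by position and length, with no array value in the rule. A gap had to be 400 bp or more wide, to lie on chromosome II, on chromosome III or on chromosome I below position 3720000, where the coordinates of the array match the assembly, and to hold the middle of at least 1 array probe. Of 1110 neighbouring convergent pairs, 643 overlapped, 363 were separated by less than 400 bp and 104 by 400 bp or more. A probe lay in 96 of these 104 gaps, and those 96 are the convergent gaps described below, out of 1621 gaps of any orientation. The other gaps were 757 divergent gaps, which lie between a pair of gene starts, and 768 tandem gaps, which lie between the end of one gene and the start of the next.

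The strains were cdc25-22 deltarad3, called rad3Δ here, and cdc25-22, called WT as in the labels, with 3 arrays each. Both carry cdc25-22, a temperature-sensitive allele of the phosphatase that drives entry into mitosis. Per the labels, both were arrested at 36.5 °C for 4 h, shifted back to 25 °C and treated with 6 mM hydroxyurea (HU), an inhibitor of ribonucleotide reductase that slows replication by lowering the supply of deoxynucleotides; the harvest time is unknown here. The labels do not say whether replicates came from separate cultures, so the p-values speak only to the spread among these arrays, which may be technical. On each array the IP of a sample and its own input carried different dyes, and there was no control IP.

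RPA coats single-stranded DNA, which is exposed at replication forks, at resected breaks and wherever unwinding runs ahead of synthesis. Rad3 is the fission yeast kinase of the ATR family; it is recruited to RPA-coated DNA and, when replication is blocked, restrains the firing of further origins and protects stalled forks. Origins of this yeast lie in AT-rich intergenic DNA, and gaps between convergent genes, which hold no promoter of the flanking genes, are known as places where transcription terminates and where cohesin accumulates in yeasts.

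Values are log2 of IP over input, centred so that 0 is the median probe of each array, and a gap's value is the mean over its probes. The deletion was visible in the input: over 20 probes inside rad3 the median log2 input was -7.41, -5.10 and -5.57 on rad3Δ arrays, where at most 1 of the 20 was well above background, against -0.41, -0.38 and -0.52 on WT arrays. Of the 42641 nuclear probes, 99.07% to 99.94% were well above background in input and 95.33% to 99.37% in IP. Every rad3Δ array lay at slide position 4 and every WT array at position 2, and the effect of one cannot be told apart from that of the other. Replicates 1 and 2 of both strains carried the IP in the green dye and replicate 3 in the red dye, each number on 1 slide. Over the 96 gaps, arrays of the same strain correlated at 0.77 to 0.79 and arrays of different strains at 0.31 to 0.60, as a description.

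The convergent gaps were short and poor in G+C. Their median width was 711 bp, with a median of 3 probes per gap and 369 probes in all, and 11 gaps had a single probe. Their median G+C content was 30.2%, against 31.3% in divergent and 31.5% in tandem gaps. An AT-rich island, a run of 500 bp windows with at least 75% A+T, touched 25 of 96 convergent gaps (26.0%), 17.6% of divergent and 14.1% of tandem gaps. A tRNA gene lay in 14 of the 96, a long terminal repeat in 4, and another non-coding RNA gene in 64 (66.7%). In 23 of the 96 a flanking gene had no annotated 3′ UTR, so that the true gap may be narrower than the annotated one.

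The following windows show the DNA of 5 convergent gaps that differed between the strains, the first 3 higher and the last 2 lower in rad3Δ. They are the called gaps with the largest rises and falls among those whose flanking genes both have an annotated 3′ UTR. Each is 300 bases of the + strand of ASM294v3 (RefSeq), 5′ to 3′, and capitals mark reference bases at the coordinates of array probes, whose own sequences were not used here. The windows are chrI:2667755-2668054, chrI:85266-85565, chrI:64025-64324, chrI:1002362-1002661 and chrIII:1410144-1410443, in the order of the lines, with A+T contents of 76.0%, 74.7%, 71.7%, 72.3% and 78.3%.
hxk2-mrps12: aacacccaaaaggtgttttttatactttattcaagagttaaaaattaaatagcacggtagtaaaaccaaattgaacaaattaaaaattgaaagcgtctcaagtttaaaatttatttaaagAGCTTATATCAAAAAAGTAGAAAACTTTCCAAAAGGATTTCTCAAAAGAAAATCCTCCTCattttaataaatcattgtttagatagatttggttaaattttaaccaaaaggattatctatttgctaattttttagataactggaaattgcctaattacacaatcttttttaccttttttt
ght3-shu1: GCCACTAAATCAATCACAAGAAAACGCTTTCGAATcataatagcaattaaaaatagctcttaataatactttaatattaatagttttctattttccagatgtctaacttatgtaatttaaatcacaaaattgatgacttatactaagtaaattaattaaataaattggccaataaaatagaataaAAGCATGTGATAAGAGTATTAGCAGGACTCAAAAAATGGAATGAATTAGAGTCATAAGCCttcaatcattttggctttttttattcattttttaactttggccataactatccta
SPAC977.15-dak2: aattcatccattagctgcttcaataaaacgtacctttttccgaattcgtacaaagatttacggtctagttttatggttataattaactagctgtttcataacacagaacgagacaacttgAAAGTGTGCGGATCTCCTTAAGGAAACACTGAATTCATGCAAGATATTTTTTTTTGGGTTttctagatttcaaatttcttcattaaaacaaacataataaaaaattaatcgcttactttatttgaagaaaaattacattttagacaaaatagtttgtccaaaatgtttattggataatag
eng1-sod1: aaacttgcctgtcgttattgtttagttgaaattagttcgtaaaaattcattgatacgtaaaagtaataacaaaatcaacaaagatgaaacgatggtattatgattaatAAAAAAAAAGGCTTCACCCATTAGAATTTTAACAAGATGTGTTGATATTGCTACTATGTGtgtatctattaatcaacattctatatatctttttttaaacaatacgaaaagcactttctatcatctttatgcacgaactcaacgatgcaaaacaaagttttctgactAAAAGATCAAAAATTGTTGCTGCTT
SPCC622.07-hta1: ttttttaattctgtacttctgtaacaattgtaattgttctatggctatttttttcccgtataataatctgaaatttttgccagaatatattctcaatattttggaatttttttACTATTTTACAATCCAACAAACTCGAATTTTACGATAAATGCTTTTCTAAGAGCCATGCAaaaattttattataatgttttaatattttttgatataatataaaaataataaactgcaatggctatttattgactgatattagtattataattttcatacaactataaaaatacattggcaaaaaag

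Convergent gaps were above the median probe in both strains and above the genes beside them. The mean over the 96 gaps was 0.26, 0.20 and 0.14 on rad3Δ arrays 1 to 3, against 0.19, 0.20 and 0.08 on WT arrays 1 to 3. The strains overlapped, and array 3 was the lowest in each. The means of 0.20 ± 0.06 in rad3Δ and 0.16 ± 0.07 in WT (SD, n = 3 each) differed by 0.04 (exact permutation test, two-sided, p = 0.4; the smallest p that 3 arrays against 3 can give is 0.1). The gaps exceeded their own flanking genes by 0.22 ± 0.09 in rad3Δ and 0.21 ± 0.07 in WT (SD, n = 3 each), and did so on 6 of 6 arrays (mean 0.21; exact sign-flip permutation test over 6 arrays, p = 0.03125, the smallest it can give; Benjamini-Hochberg adjusted over 4 such tests, 0.0417). The sign-flip test takes the 6 arrays as independent, although same-numbered arrays share a slide. Deviations of such pairs from the strain means correlated at 0.46, 0.38 and 0.47, so the test's p-values here and below may be too small. With the 3 slides as units, the smallest p the test could give is far above 0.05. The excess did not differ between the strains beyond their spread (difference 0.01, exact permutation p = 0.8). Divergent gaps exceeded their flanking genes too, by 0.14 ± 0.03 in rad3Δ and 0.06 ± 0.01 in WT, on 6 of 6 arrays. Tandem gaps did so by 0.13 ± 0.06 in rad3Δ and 0.11 ± 0.04 in WT (SD, n = 3 each), also on 6 of 6. The mean over tandem gaps was likewise above the median probe on 6 of 6 arrays. Taken apart, log2 IP over the convergent gaps was 0.19 ± 0.09 in rad3Δ and 0.14 ± 0.15 in WT, and log2 input was 0.03 ± 0.09 in rad3Δ and 0.00 ± 0.13 in WT (SD, n = 3 each), each relative to its channel's median; the strains overlapped in both (exact permutation p = 0.6 and 0.9).

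The excess was narrow. By distance from the gap middle, in bins of 500 bp, convergent gaps reached 0.16 ± 0.06 and 0.23 ± 0.06 in the bins below and above the middle in rad3Δ, against 0.09 ± 0.08 and 0.16 ± 0.08 in WT (SD, n = 3 each). The next bin on the upper side was at 0.07 ± 0.03 in rad3Δ and 0.03 ± 0.04 in WT. On the lower side the bin centred at -1250 bp was at -0.09 ± 0.08 in rad3Δ and -0.14 ± 0.03 in WT, the lowest bin of either profile. The curves of both strains thus ran close together around convergent gaps, and apart around divergent gaps. There the same middle bins held 0.15 and 0.20 in rad3Δ against -0.02 and 0.04 in WT. Divergent gaps were also wider, with a median of 1068 bp against 711 bp. At 1000 bp and more, gap means in rad3Δ exceeded WT by 0.20 in convergent and 0.24 in divergent gaps. From 600 bp up to that width the differences were -0.02 and 0.12, and below 600 bp -0.04 and 0.05. The contrast thus mixes orientation with width, and it was not tested at matched width. Values were higher just above than just below the middle, in chromosome coordinates, for all 3 orientations: by 0.08 ± 0.05 in rad3Δ and 0.07 ± 0.09 in WT at convergent gaps, on 5 of 6 arrays.

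**Figure D1:**
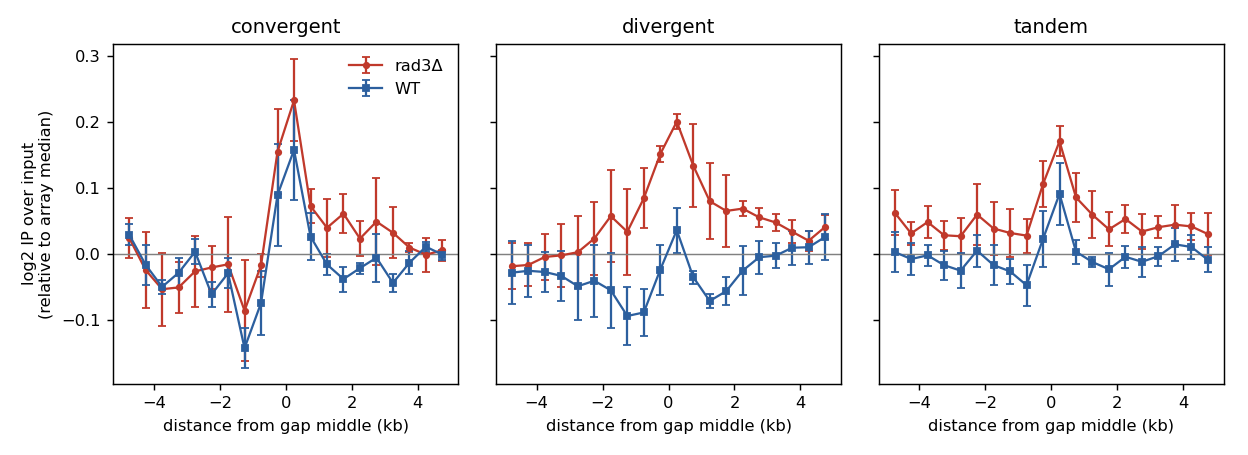
Mean log2 IP over input (y axis, 0 is the array median) by distance from the gap middle in kb along the chromosome (x axis, bins of 500 bp) for convergent, divergent and tandem gaps; circles and red lines are rad3Δ, squares and blue lines WT, and bars the SD over 3 arrays. Both strains peak within the middle bins at convergent gaps (0.23 in rad3Δ, 0.16 in WT), whereas at divergent gaps rad3Δ (0.20) lies above WT (0.04).

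Convergent gaps were then set against the other orientations, without matching for width. Convergent minus divergent gaps gave 0.08, 0.03 and -0.04 on rad3Δ arrays 1 to 3, against 0.15, 0.20 and 0.10 on WT arrays 1 to 3. Every WT array was above every rad3Δ array, with means of 0.02 ± 0.06 in rad3Δ and 0.15 ± 0.05 in WT (SD, n = 3 each; difference -0.13, exact permutation p = 0.1, the smallest possible; adjusted over 9 tests between the strains, 0.225). Divergent gaps themselves held 0.18 ± 0.01 in rad3Δ and 0.00 ± 0.03 in WT, without overlap (difference 0.17, exact permutation p = 0.1), so the narrower margin in rad3Δ came, over all 96 gaps, with a higher level in divergent gaps and not a lower one in convergent gaps. In the chromosome arms alone, convergent gaps held 0.16 in rad3Δ and 0.21 in WT. Over all 6 arrays the convergent minus divergent margin was above 0 on 5 (mean 0.09, exact sign-flip p = 0.0938). Convergent minus tandem gaps was 0.05 ± 0.02 in rad3Δ and 0.08 ± 0.03 in WT (SD, n = 3 each), above 0 on 6 of 6 arrays (mean 0.07, exact sign-flip p = 0.03125, adjusted 0.0417), with no difference between the strains beyond their spread (-0.03, exact permutation p = 0.3). Without the gaps that hold a tRNA or other small RNA gene, the margin over tandem gaps was 0.03 (exact sign-flip p = 0.156).

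**Figure D2:**
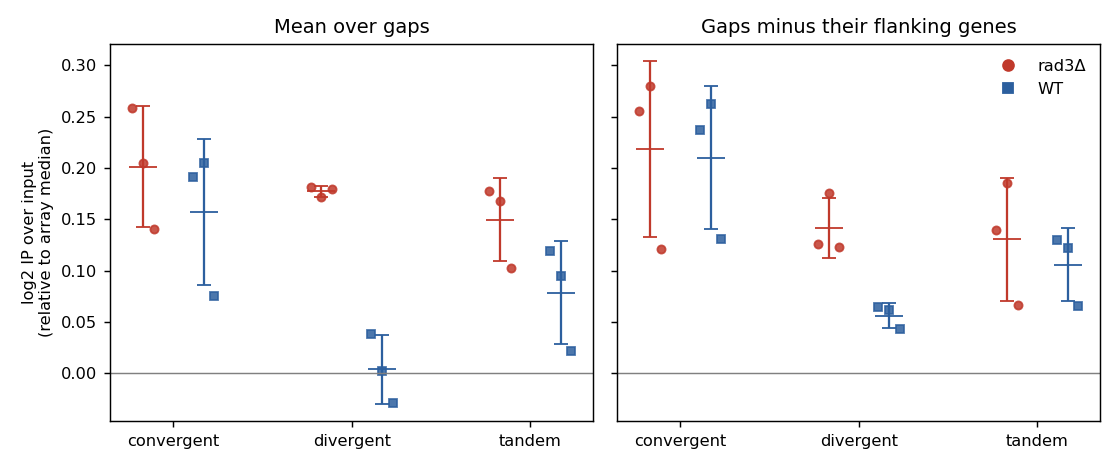
Log2 IP over input (y axis, 0 is the array median) averaged over convergent, divergent and tandem gaps (left), and the same minus the genes flanking each gap (right); points are arrays, red circles rad3Δ and blue squares WT, with horizontal bars for means and error bars for the SD (n = 3). The strains overlap at convergent gaps (0.20 in rad3Δ, 0.16 in WT) and do not at divergent gaps (0.18 in rad3Δ, 0.00 in WT).

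Gap by gap, 40 of 96 convergent gaps (41.7%) were above the array median in rad3Δ and 42 (43.8%) in WT (limma, Benjamini-Hochberg adjusted p under 0.05 over all 1621 gaps). The same calls took in 36.9% of all gaps in rad3Δ and 27% in WT. The convergent share in WT thus stood beside 20.5% of divergent and 31.3% of tandem gaps, and the share in rad3Δ beside 37.1% of divergent and 36.1% of tandem gaps. Of the convergent gaps, 27 were above the median in both strains, 13 passed only in rad3Δ and 15 only in WT. Passing in a single strain is not a test of the difference between the strains. Below the median lay 17 in rad3Δ and 17 in WT, 8 of them in both, where the background was 17.6% of all gaps in rad3Δ and 18.7% in WT. The splits into both strains or a single strain were not counted over all gaps, so they have no background here. Without rad3Δ replicate 3, 20 gaps (20.8%, against 15.4% of all gaps) were above the median in rad3Δ, and without WT replicate 3, 15 (15.6%, against 7.65% of all gaps) were in WT. In those fits the dye term rests on the single red array that is left. Without replicate 3 of both strains, and with no dye term, 37 gaps (38.5%, against 30.5% of all gaps) were above the median in rad3Δ. In WT 33 were (34.4%, against 17.6% of all gaps).

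Rises and falls between the strains were both present. In rad3Δ, 16 convergent gaps (16.7%) were higher than in WT and 8 (8.33%) lower, against a background of 15.4% higher and 1.73% lower among all gaps. The share of rises was thus near the background, between 18.5% in divergent and 12.1% in tandem gaps, while the share of falls was above the 0.66% of divergent and 1.95% of tandem gaps. The median difference over the 96 gaps was -0.10, against 0.01 over all gaps. A flanking gene without an annotated 3′ UTR lay beside 7 of the 16 rises and 1 of the 8 falls, against 23 of the 96 gaps. Those rises include SPAC212.04C-SPAC212.03, gal1-SPBPB2B2.14C, SPBC3E7.17-ric8, mat1-Mc-SPBC23G7.10C and SPBPB2B2.08-pan5, described below, whose true gaps may be narrower. Without any model, 18 convergent gaps had every rad3Δ array above every WT array and 18 had every rad3Δ array below, against 22.3% and 9.44% of all gaps. The strains ran on shared slides, and with the replicate number as a block in place of the dye term the counts were 19 higher and 14 lower, against 20.1% and 3.95% of all gaps. Both counts were smaller without a replicate 3 array, the only ones with a red IP: without either strain's replicate 3, 7 gaps were higher and 0 lower (limma; 15 and 10 at an unadjusted p under 0.05), against 7.03% and 0.0617% of all gaps. The dye term then takes up the other strain's replicate 3, so the strain difference rests on replicates 1 and 2 of both strains. A dependence on replicate 3 cannot be told apart there from the loss of arrays. Of the 8 falls, 2 kept their call without rad3Δ replicate 1, 4 without rad3Δ replicate 2 and 2 without WT replicate 2. With normexp background correction 0 of all 1621 gaps were higher and 0 lower (limma; 9 and 15 convergent gaps at an unadjusted p under 0.05).

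**Figure D3:**
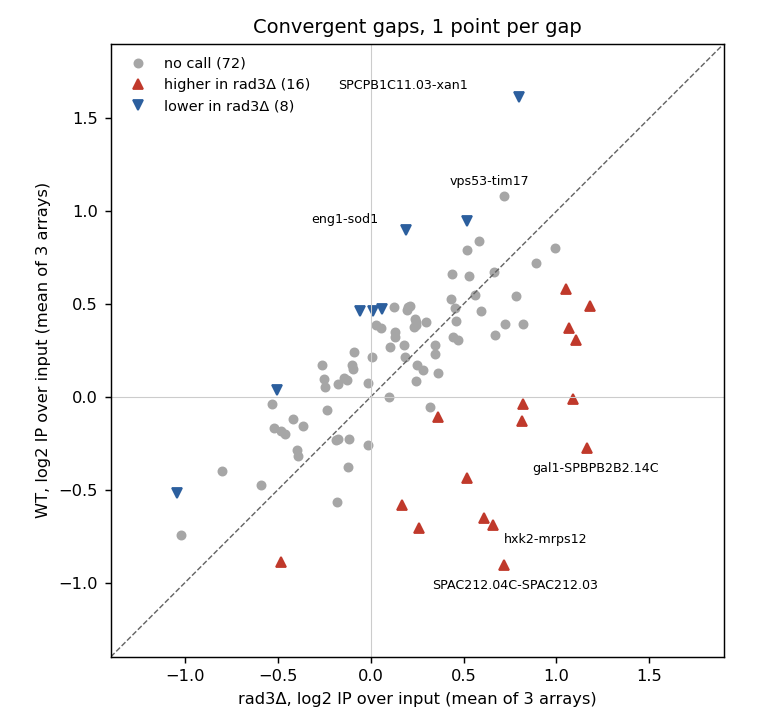
Each point is 1 convergent gap, with its mean log2 IP over input in rad3Δ (x axis) and in WT (y axis), each over 3 arrays; the dashed line marks equal values. The 16 gaps higher in rad3Δ (red triangles) lie below the line, mostly with WT values under 0, and the 8 lower ones (blue triangles) above it.

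In the chromosome arms the largest rise was at a gap below the array median in WT. The hxk2-mrps12 gap (chrI:2667396-2668080), between the genes of hexokinase and a protein of the small mitochondrial ribosomal subunit, had 3 probes. It held 0.92, 0.39 and 0.66 on rad3Δ arrays 1 to 3, against 0.12, -0.92 and -1.27 on WT arrays 1 to 3. The groups did not overlap, but WT array 1 stood well above the other two WT arrays, and the difference was 1.35 ± 0.27 (SE; limma adjusted p = 0.00555). Of these probes, the one in capitals in the printed window was at 0.52 in rad3Δ and -1.20 in WT, but its IP was well above background on only 1 of the 3 WT arrays. With the probes well above background on all arrays alone, the gap's difference was 1.16 (limma adjusted p = 0.00379).

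The SPBC3E7.17-ric8 gap (chrII:2661979-2662487) lies beside ric8, which codes for a synembryn-like protein, a class that acts on G protein alpha subunits. It was at 1.37, 0.93 and 0.96 on rad3Δ arrays 1 to 3, against 0.14, 0.05 and -0.22 on WT arrays 1 to 3. All rad3Δ arrays were far above all WT arrays, the difference was 1.098 ± 0.14 (SE; limma adjusted p = 0.000438), and it remained a call in 20 of the 21 alternatives that tested it, all but normexp.

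The stg1-mug114 gap (chrI:2662536-2662987), beside the transgelin-like gene stg1, lies close to the hxk2-mrps12 gap, and whether their rises are separate was not tested. The stg1-mug114 gap is touched by 1 AT-rich island and rests on a single probe, whose IP was well above background on 2 of the 3 WT arrays. Its values were 0.79, 0.21 and 0.56 on rad3Δ arrays 1 to 3, against -0.36, -0.02 and -0.94 on WT arrays 1 to 3, a difference of 0.96 ± 0.21 (SE; limma adjusted p = 0.00784). The alr2-aat1 gap (chrII:109354-111006), between the genes of alanine racemase and an amino acid permease, held 7 probes and 3 AT-rich islands. It stood at 0.58, 0.76 and 1.11 on rad3Δ arrays 1 to 3, against 0.03, 0.01 and -0.16 on WT arrays 1 to 3. Every rad3Δ array was above every WT array in both gaps, and at alr2-aat1 the difference was 0.86 ± 0.15 (SE; limma adjusted p = 0.00271).

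Beside mat1-Mc, which encodes a mating-type transcription factor, the gap to SPBC23G7.10C (chrII:2115028-2118145) is one of the 5 widest, with 10 probes. It held 1.29, 0.56 and 1.47 on rad3Δ arrays 1 to 3, against 0.41, 0.19 and 0.31 on WT arrays 1 to 3. The rad3Δ arrays differed more among themselves than the WT arrays did, without reaching them, and the difference was 0.80 ± 0.20 (SE; limma adjusted p = 0.0167). The ubp9-SPBC1703.13C gap (chrII:2938763-2939885), beside a ubiquitin hydrolase gene, was the only rise that holds a tRNA gene, SPBTRNAPRO.07. It was above the array median in both strains, at 0.97, 1.08 and 1.1 on rad3Δ arrays 1 to 3 against 0.63, 0.59 and 0.52 on WT arrays 1 to 3, a difference of 0.47 ± 0.12 (SE; limma adjusted p = 0.0235).

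Of the 16 rises, 9 lay near chromosome ends. Of the 11 convergent gaps within 100 kb of an end of the annotated chromosome, 9 were higher in rad3Δ (81.8%, against 43.2% of all 74 gaps in that range) and 0 lower. Their mean was 0.47, 0.50 and 0.55 on rad3Δ arrays 1 to 3, against -0.29, -0.13 and -0.52 on WT arrays 1 to 3. They were thus above the other convergent gaps on every rad3Δ array, by 0.34 ± 0.11, and below them on every WT array, by -0.53 ± 0.15 (SD, n = 3 each; difference of these differences 0.87, exact permutation p = 0.1, adjusted 0.225). Divergent gaps of the same range held 0.38 ± 0.03 in rad3Δ and -0.04 ± 0.07 in WT, and tandem gaps 0.32 ± 0.04 in rad3Δ and -0.06 ± 0.14 in WT.

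The end gaps included the largest fitted difference among the 96, at SPAC212.04C-SPAC212.03 (chrI:23051-23588) on the left end of chromosome I. It held 0.74, 0.49 and 0.92 on rad3Δ arrays 1 to 3, against -0.99, -0.54 and -1.19 on WT arrays 1 to 3, a difference of 1.62 ± 0.18 (SE; 3.08-fold; limma adjusted p = 0.000272). One of its 2 probes matches another place in the assembly, the only such probe of the 369, and its IP was well above background on 2 of the 3 WT arrays. Its own difference was 1.79, and the unique probe alone gave 1.46, level with the 1.44 of the gal1 gap described below. On the same arm, ght3-shu1 (chrI:84787-85565), between the genes of a gluconate symporter and of Shu1, which takes part in haem uptake, held 0.73, 0.46 and 0.64 on rad3Δ arrays 1 to 3, against -0.52, -0.66 and -0.77 on WT arrays 1 to 3. All 4 of its probes were higher in rad3Δ, and the gap's difference was 1.26 ± 0.13 (SE; limma adjusted p = 0.000203). Of these probes, 1 had an IP well above background on only 2 of the 3 WT arrays.

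SPAC977.15-dak2 (chrI:63863-64558), beside a dihydroxyacetone kinase gene, was near the array median in rad3Δ, at 0.02, 0.19 and 0.56 on arrays 1 to 3, and below it in WT, at -0.68, -0.57 and -0.87. SPAC977.17-SPAPJ695.02 (chrI:69822-74451), with 15 probes the second widest gap, had the same form, with 0.23, 0.13 and 0.14 on rad3Δ arrays 1 to 3 against -0.44, -0.39 and -0.91 on WT arrays 1 to 3. Neither passed the test against the median in rad3Δ (limma adjusted p = 0.0656 and 0.318), and both were below it in WT, so that their rises of 0.97 ± 0.16 and 0.75 ± 0.14 (SE; limma adjusted p = 0.00174 and 0.00342) came with a low WT level. Of the 15 probes of SPAC977.17-SPAPJ695.02, 1 had an IP well above background on only 2 of the 3 WT arrays.

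On the right end of chromosome II the rises reached well above the median. The gap from gal1, the galactokinase gene, to SPBPB2B2.14C (chrII:4490272-4492579) held 1.14, 1.21 and 1.14 on rad3Δ arrays 1 to 3, against -0.18, -0.00 and -0.65 on WT arrays 1 to 3. All 6 of its probes were higher in rad3Δ, by 1.095 to 1.78, and the difference was 1.44 ± 0.14 (SE; 2.71-fold; limma adjusted p = 0.000146). Of 2 further gaps of this end, SPBPB2B2.05-SPBPB2B2.06C rose by 0.95 ± 0.13, and SPBPB2B2.08-pan5, beside a 2-dehydropantoate 2-reductase gene, by 0.70 ± 0.17 (SE; limma adjusted p = 0.000644 and 0.0137). At SPBPB2B2.05-SPBPB2B2.06C, 1 probe was well above background on only 1 of the 3 WT arrays in IP and 2 in input. On the right end of chromosome III, SPCC569.05C-SPCC569.03 was the highest of all convergent gaps in rad3Δ, at 0.99, 1.20 and 1.36 on arrays 1 to 3 against 0.37, 0.63 and 0.46 on WT arrays 1 to 3. Of its probes, 1 was well above background in input on only 1 of the 3 arrays of each strain, and in IP on 2 of the 3 WT arrays. The 2 end gaps without a call, named after their values were seen, were SPAC977.12-SPAC977.14C (0.38, limma adjusted p = 0.106) and SPCC757.06-ctt1, beside the catalase gene (-0.16, limma adjusted p = 0.442).

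**Figure D4:**
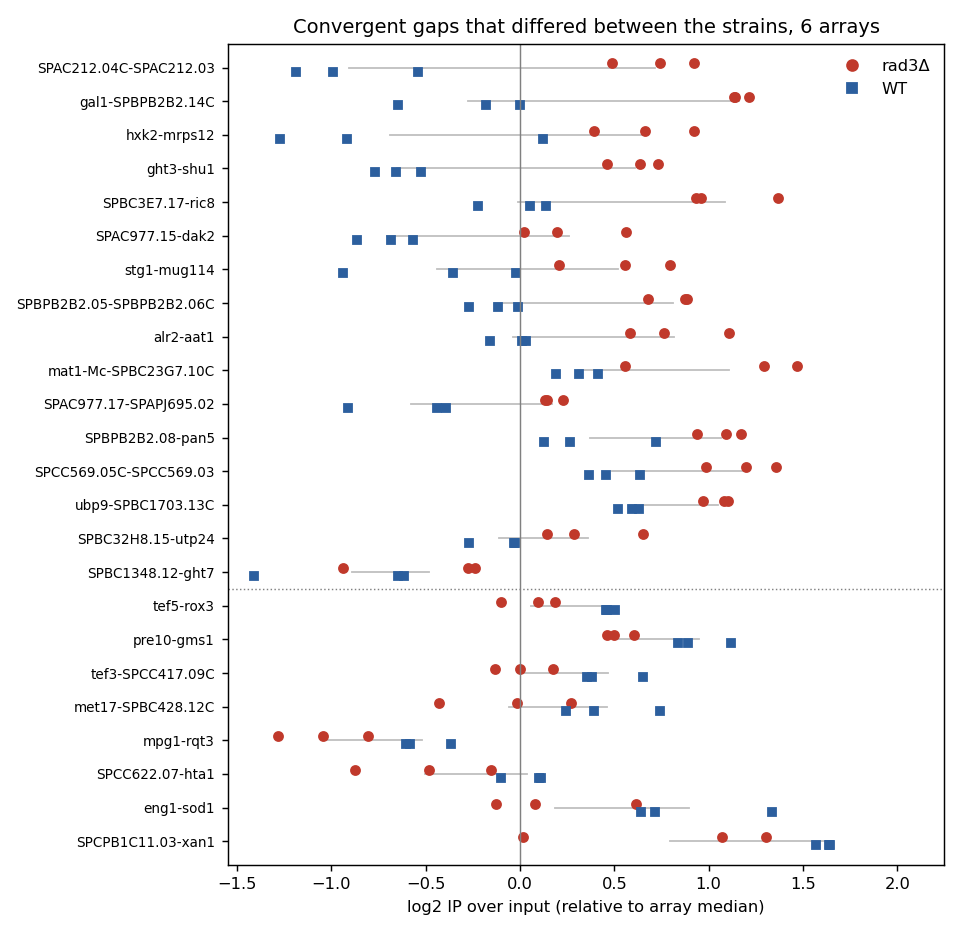
Log2 IP over input (x axis, 0 is the array median) on all 6 arrays for the 24 convergent gaps that differed between the strains, 1 row per gap; red circles are rad3Δ arrays, drawn above the blue squares of WT arrays, and a grey line joins the strain means. The 16 gaps above the dotted line were higher and the 8 below it lower in rad3Δ; the strains do not overlap in 15 and 7 of them.

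Falls were smaller, and 6 of the 8 were in the arms of chromosome III. The SPCPB1C11.03-xan1 gap (chrIII:2079004-2079420), beside the gene of a xanthine dioxygenase, was the highest convergent gap of WT. It held 1.30, 1.07 and 0.02 on rad3Δ arrays 1 to 3, against 1.64, 1.57 and 1.64 on WT arrays 1 to 3. The WT arrays were close together and rad3Δ array 3 was far below the other two, and the difference was -0.82 ± 0.22 (SE; limma adjusted p = 0.0239). Without replicate 3 of rad3Δ, which leaves the difference to replicates 1 and 2 of both strains, it was -0.42 and no longer a call (limma adjusted p = 0.207). Of its probes, 1 was well above background on only 2 arrays per strain, in IP and in input.

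The eng1-sod1 gap (chrI:1002362-1002837) lies between eng1, whose product is a glucanase that splits the septum at cell separation, and the superoxide dismutase gene sod1. It held 0.08, 0.62 and -0.13 on rad3Δ arrays 1 to 3, against 0.64, 1.34 and 0.72 on WT arrays 1 to 3. The groups came close without overlap, array 2 was the highest in both strains, and the difference was -0.71 ± 0.20 (SE; limma adjusted p = 0.0313). Both of its probes were lower in rad3Δ, at -0.24 and 0.61 in rad3Δ against 0.66 and 1.14 in WT.

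The SPCC622.07-hta1 gap (chrIII:1410144-1411143), beside a histone H2A gene, was at -0.16, -0.48 and -0.88 on rad3Δ arrays 1 to 3, against -0.10, 0.10 and 0.11 on WT arrays 1 to 3. One of its 3 probes had an IP well above background on 1 of the 3 rad3Δ arrays and 0 of the WT arrays. The gap was below the array median on all rad3Δ arrays and within 0.11 of it on WT arrays, a difference of -0.54 ± 0.17 (SE; limma adjusted p = 0.0495). The tef3-SPCC417.09C gap (chrIII:1688952-1691218), beside the elongation factor gene tef3, holds the tRNA genes sup9 and imt07. Its 9 probes averaged -0.00, 0.17 and -0.13 on rad3Δ arrays 1 to 3, against 0.36, 0.65 and 0.38 on WT arrays 1 to 3, a difference of -0.45 ± 0.13 (SE; limma adjusted p = 0.0424).

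Also lower without overlap were mpg1-rqt3, beside a gene of cell wall sugar metabolism (-0.52, 1 probe), pre10-gms1, beside a proteasome subunit gene (-0.43), and tef5-rox3, beside an elongation factor gene (-0.41; limma adjusted p = 0.0373, 0.0451 and 0.0498). At met17-SPBC428.12C, named after its values were seen, the arrays of the strains overlapped (-0.52, limma adjusted p = 0.0341). The falls were less stable than the rises: with probes placed 150 bp lower along the chromosome, an alternative chosen after the profile was seen, 1 of the 8 remained a call, tef3-SPCC417.09C, against 15 of the 16 rises, and 0 of the 8 remained without the dye term, against 14 rises.

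By chromosome, convergent gaps were lower in rad3Δ in the arms of III, and so, by less, were all gaps there. The 34 convergent gaps in the arms of chromosome III held 0.07, -0.02 and -0.15 on rad3Δ arrays 1 to 3, against 0.23, 0.19 and 0.19 on WT arrays 1 to 3. Every rad3Δ array was below every WT array (-0.03 ± 0.11 in rad3Δ and 0.20 ± 0.02 in WT, SD, n = 3 each), and 6 of the 34 gaps were lower and 0 higher (limma), where among all 353 gaps of these arms 12 were lower and 12 higher. Those 353 gaps averaged -0.01 ± 0.04 in rad3Δ and 0.09 ± 0.03 in WT (SD, n = 3 each), again without overlap; that the convergent gaps differed more was not tested. In the arms of chromosome I the 21 convergent gaps held 0.23 ± 0.07 in rad3Δ and 0.25 ± 0.13 in WT, and in those of chromosome II the 29 gaps held 0.33 ± 0.04 in rad3Δ and 0.19 ± 0.06 in WT (SD, n = 3 each). With the end gaps left out, the mean over convergent gaps was lower in rad3Δ than in WT by -0.06 (exact permutation p = 0.3), and the margin over divergent gaps by -0.22 (exact permutation p = 0.1).

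**Figure D5:**
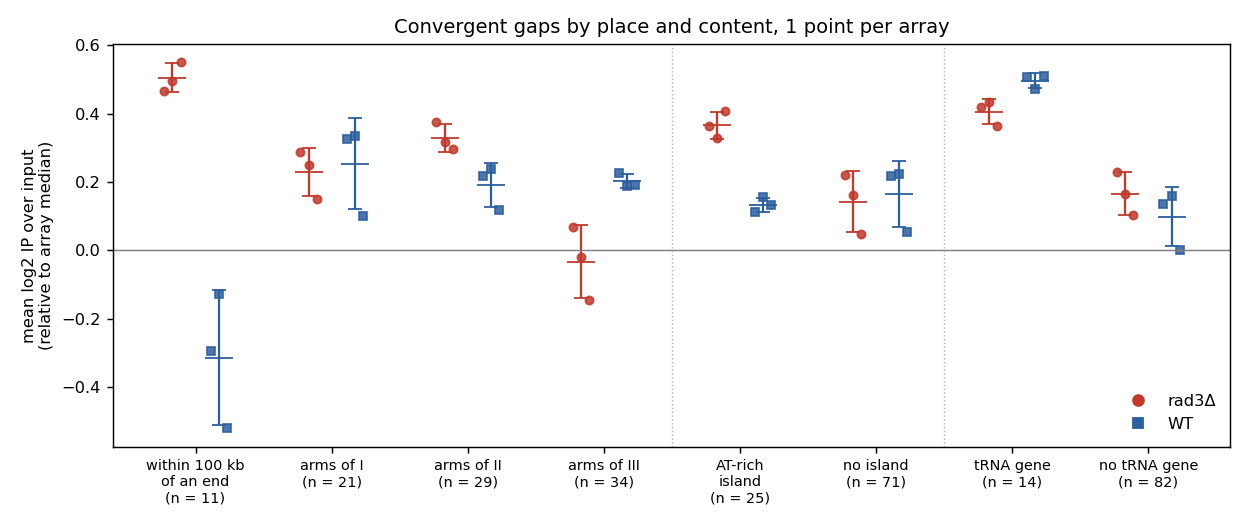
Mean log2 IP over input (y axis, 0 is the array median) over sets of convergent gaps by place (left), AT-rich island (middle) and tRNA gene (right), with the number of gaps under each; points are arrays, red circles rad3Δ left of blue squares WT, with means and SD bars (n = 3). The strains part most at the 11 gaps near chromosome ends (0.51 in rad3Δ, -0.31 in WT), and lie the other way round in the arms of chromosome III (-0.03 in rad3Δ, 0.20 in WT).

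Convergent gaps with an AT-rich island were higher in rad3Δ than in WT on average, and those without one were not. The 25 convergent gaps with an island held 0.36, 0.33 and 0.41 on rad3Δ arrays 1 to 3, against 0.11, 0.16 and 0.13 on WT arrays 1 to 3, and the 71 without one held 0.14 ± 0.09 in rad3Δ and 0.17 ± 0.10 in WT (SD, n = 3 each). The excess of gaps with an island over those without was 0.22 ± 0.12 in rad3Δ and -0.03 ± 0.10 in WT, every rad3Δ array being above every WT array (difference 0.25, exact permutation p = 0.1, adjusted 0.225). Of the gaps with an island 9 were higher and 2 lower (limma), and of those without 7 were higher and 6 lower. These counts include the gaps near chromosome ends. In the arms alone, 5 of 20 convergent gaps with an island were higher (25%, against 40.7% of all arm gaps with one) and 2 lower (10%, against 1.22%). Of the 64 convergent arm gaps without one, 2 were higher (3.125%, against 9.06% of all such arm gaps) and 6 lower (9.375%, against 1.935%). Among gaps of any orientation and place, 41.7% of those with an island were higher and 1.13% lower, and 10.2% of those without were higher and 1.85% lower, so the convergent shares of rises were not above the background. The convergent shares of falls were above it, on 2 and 6 gaps. For divergent gaps with an island the values were 0.55 ± 0.10 in rad3Δ and -0.01 ± 0.05 in WT, and 68 of 133 were higher. As among gaps of any orientation, more of the wider gaps were rises, with 10 of 30 higher at 1000 bp and more, 3 of 34 from 600 bp up to that width and 3 of 32 below 600 bp, against 21.5%, 13.9% and 6.47% of all gaps in these classes. The falls were 2, 1 and 5, against 0.571%, 1.93% and 3.48% of all gaps.

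Gaps with a tRNA gene, a short unit transcribed by RNA polymerase III that is known to slow replication forks, were among the highest in both strains. The 14 such gaps held 0.41 ± 0.04 in rad3Δ and 0.50 ± 0.02 in WT, and the 82 others 0.17 ± 0.06 in rad3Δ and 0.10 ± 0.09 in WT (SD, n = 3 each). The excess was above 0 on 6 of 6 arrays (mean 0.32, exact sign-flip p = 0.03125, adjusted 0.0417). It was 0.19, 0.27 and 0.26 on rad3Δ arrays 1 to 3, against 0.37, 0.31 and 0.51 on WT arrays 1 to 3, lower on every rad3Δ array (difference -0.16, exact permutation p = 0.1, adjusted 0.225). The 82 others include all 11 gaps near chromosome ends, which held 0.51 in rad3Δ and -0.31 in WT. This strain difference thus mixes tRNA genes with place, and it was not tested without the end gaps. The call between the strains was made at 1 rise and 1 fall of the 14, both described above, where among all 99 gaps with a tRNA gene 9 were higher and 2 lower. Tandem gaps with a tRNA gene were nearly as high, at 0.36 ± 0.02 in rad3Δ and 0.41 ± 0.06 in WT. Divergent ones held 0.22 ± 0.08 in rad3Δ and 0.14 ± 0.07 in WT. Without the gap that spans centromere III, the other 13 convergent ones held 0.40 ± 0.05 in rad3Δ and 0.47 ± 0.02 in WT (SD, n = 3 each).

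Among gaps with 2 or more probes, 4 of the 8 highest in WT held a tRNA gene. These were vps53-tim17 (0.72 ± 0.11 in rad3Δ, 1.08 ± 0.24 in WT), beside genes of vesicle tethering and mitochondrial import, SPCC417.12-SPCC417.15 (0.58 ± 0.22 in rad3Δ, 0.84 ± 0.17 in WT), SPAC4A8.14-cdc3, beside the profilin gene (0.99 ± 0.35 in rad3Δ, 0.80 ± 0.33 in WT), and chk1-ppc1 (SD, n = 3 each). The other 4 were SPCPB1C11.03-xan1, pre10-gms1, eng1-sod1 and mcp4-erp5, of which the first 3 were falls and the last was level (0.66 ± 0.34 in rad3Δ, 0.67 ± 0.02 in WT). Of the 8 highest in rad3Δ, 6 were rises, and the others were SPAC4A8.14-cdc3 and pfl5-cao2 (0.82 ± 0.09 in rad3Δ, 0.39 ± 0.26 in WT; limma adjusted p = 0.0776).

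The chk1-ppc1 gap is a special case, since by annotation it spans centromere III. It runs over 78172 bp (chrIII:1064444-1142615) from chk1, the gene of a kinase that acts downstream of Rad3 at the damage checkpoint, and holds 30 probes, 21 tRNA genes and 8 AT-rich islands. It was at 0.40, 0.48 and 0.67 on rad3Δ arrays 1 to 3, against 0.72, 0.75 and 0.91 on WT arrays 1 to 3. The rad3Δ arrays were all below the WT arrays and 28 of the 30 probes were lower in rad3Δ, but the difference of -0.27 ± 0.12 (SE) did not pass (limma adjusted p = 0.163, and 0.107 with the replicate block). Single probes ranged from -0.40 to 2.17 in rad3Δ and from -0.29 to 2.44 in WT. The remaining wide gaps, dga1-wtf4 (-0.27, limma adjusted p = 0.247) and SPAPB1A11.02-mca1 (0.17, limma adjusted p = 0.424), did not pass either.

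Genes of fixed lists flanked few convergent gaps. Ribosomal protein genes flanked 3 (0 higher, 0 lower, median difference 0.08, against 8 higher and 4 lower of 85 gaps of any orientation, median -0.09). Core histone genes flanked 2 (0 higher, 1 lower, median -0.36, against 0 higher and 1 lower of 3 gaps in all, median -0.20). Highly transcribed genes of metabolism and translation flanked 2 (0 higher, 1 lower, median -0.44, against 1 higher and 2 lower of 21 in all, median -0.20). Septum genes flanked 1, eng1-sod1, and genes driven by the G1/S factor MBF flanked no convergent gap.

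The difference at a gap was shared with the genes beside it. Of the 16 rises, 14 had flanking genes whose rad3Δ arrays were all above the WT arrays, and of the 8 falls, 4 had flanking genes whose rad3Δ arrays were all below. Such flanking genes were not counted over all gaps, so these counts have no background to be set against. At hxk2-mrps12 the flanking genes differed by 0.55 against 1.35 in the gap, at SPAC212.04C-SPAC212.03 by 1.30 against 1.62, and at SPCC622.07-hta1 by -0.58 against -0.54. Across the 96 gaps the differences of gap and flanks had a Spearman correlation of 0.84, as a description of values that share the same arrays. The difference had a rank correlation of -0.17 with G+C content, 0.28 with gap width and -0.29 with the level in WT, all over 96 gaps. The levels of the strains themselves correlated at 0.50. Levels spread widely over the gaps, with an SD over gaps of 0.48 in rad3Δ and 0.45 in WT, against a median SD between arrays of 0.21 in rad3Δ and 0.16 in WT.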

How the data were processed

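Chromatin immunoprecipitation of Ssb1 was hybridised against input on 6 two-colour Agilent arrays, 3 of rad3Δ and 3 of WT. Spot intensities were made by the authors in Agilent Feature Extraction (10.7.3.1 in the submitters' processing notes, and either that version or 10.7.1.1 in the file headers). Per the file headers, processed intensity was background-subtracted and scaled by 1 linear factor per dye. The authors also deposited a matrix of linear IP/input ratios, equal to the scanner ratio within 0.01 log2 units, and was used as an alternative. Probe positions are on the build named Spombe:NCBI:Feb2002, per the file headers. Against ASM294v3, the correlation of probe length with G+C content peaked within 12 bp of 0 in 360 of 363 windows of the part used, which holds 36475 probes (85.5%).

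Log2 of IP over input was computed from the deposited intensities of unflagged spots (2 to 401 nuclear spots per array were flagged) and centred on each array's median, with no loess or quantile step. Array medians of intensity ran between 1007 and 1145 in IP and between 969 and 1106 in input; the number of arrays limits the precision. Gap means entered limma 3.58.1 (R 4.3.3) over all 1621 gaps, with a mean per strain and a dye term, two-sided, Benjamini-Hochberg adjusted at 0.05; residual degrees of freedom were 3 and prior degrees 7.60. Means ± SD are plain means of 3 arrays, and values per array were compared with exact permutation tests in Python 3.11.15. A gap counts as within 100 kb of an end by its middle, and as holding a feature that touches it.

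Strains and replicate numbers come from the titles. For rad3Δ replicate 3 the IP label gives cdc25-22 and the input label cdc25-23, and the labels' extraction protocol speaks of RNA; neither wording was resolved. Same-numbered arrays share a slide per the file headers, and their deviations from the strain means correlated at 0.46, 0.38 and 0.47. The numbers were taken as pairs only in the alternative fit with the replicate block. The main limma fit and the exact permutation tests between the strains did not use the pairing. Members and lists were chosen with earlier results of these data known. Gaps named are the 12 largest rises and 8 largest falls among called gaps without overlap, the 8 highest per strain with at least 2 probes, called gaps with a tRNA gene or a listed gene, and the 5 widest.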

Additional observations from a re-analysis of the deposited data

Results flagged for a closer look

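The 11 convergent gaps within 100 kb of a chromosome end were set apart from the other convergent gaps in opposite directions in the strains. They exceeded the others by 0.24, 0.33 and 0.46 on rad3Δ arrays 1 to 3, and were below them, at -0.55, -0.38 and -0.67, on WT arrays 1 to 3. All 3 arrays of each strain showed its direction, and the difference between the strains was 0.875 (log2; exact permutation p = 0.1, the smallest that 3 arrays against 3 can give; adjusted over 9 tests, 0.225). With 3 arrays per strain no test for an array far from the others was made.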

How the results depend on the processing

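No result changed sign while passing a test. With normexp background correction there were 0 rises and 0 falls, 12 and 11 gaps above and below the median in rad3Δ and 14 and 2 in WT, the mean over convergent gaps differed by -0.0720, the excess over flanking genes was 0.166 (exact sign-flip p = 0.0625) and its strain difference was -0.0995; the cause was not tested. Falls numbered 0 without the dye term, 14 with the replicate block, 3 with centring on the mode, 5 with probes wholly in the gap, 5 with the median over probes, 4 for gaps of 600 bp or more, 4 without gaps holding a small RNA gene and 3 with probes placed 150 bp lower. The block moved no other count by over 1.5 times. Gaps of 600 bp or more gave 27 above the median in WT and 11 below it in rad3Δ, and gaps without a small RNA gene 26 above it in WT, by fewer gaps tested. Without a small RNA gene, the margin over tandem gaps was 0.0276 (exact sign-flip p = 0.156) and its strain difference 0.0137, which was 0.0065 with probes placed 150 bp lower.

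Without the gaps near chromosome ends, an alternative added after the data were seen, 7 rises were left and 10 gaps were below the median in WT. The strain difference of the mean was then -0.0561, that of the margin over divergent gaps -0.2205 and that of the margin over tandem gaps -0.112, and the margin over tandem gaps itself was 0.0767 (exact sign-flip p = 0.0625).

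Leaving out 1 array, or replicate 3 of both strains, gave 7 to 18 rises and 0 to 8 falls, 20 to 41 gaps above and 5 to 18 below the median in rad3Δ, and 15 to 42 above and 5 to 17 below in WT. The mean differed by 0.0033 to 0.0745, the margin over divergent gaps was 0.0655 to 0.116 and its strain difference -0.156 to -0.0981, the margin over tandem gaps 0.0562 to 0.0749 and its strain difference -0.0412 to -0.0111. The excess over flanking genes was 0.201 to 0.259, its strain difference -0.0311 to 0.0574, and the island difference 0.186 to 0.310. With 5 arrays or fewer the sign-flip test cannot go below 0.05. Centring on the mode moved WT array 3 by 0.14. Of the 16 rises, 7 lost their call under normexp alone.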

Other observations

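The values had a direction along the chromosome. Over the 36475 probes of the part used, log2 IP over input correlated best with the A+T content of a 400 bp window centred 150 bp below the probe (r = 0.29 in rad3Δ and 0.20 in WT) and less at the probe itself (0.26 in rad3Δ and 0.15 in WT). Log2 input had r = -0.08 in rad3Δ and -0.10 in WT with the window centred 200 bp below the probe, and 0.10 in rad3Δ and 0.09 in WT with the one centred 200 bp above it. These are correlations across probes, which are not independent, and the cause was not tested. The values just above a gap's middle exceeded those just below it by 0.05 ± 0.02 in rad3Δ and 0.06 ± 0.01 in WT at divergent gaps, and by 0.06 ± 0.02 in rad3Δ and 0.07 ± 0.03 in WT at tandem gaps (SD, n = 3 each), on 6 of 6 arrays in both.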
